A study of Melianthus elongatus with 11 samples.

Results

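UDP-glycosyltransferases (UGTs) move a sugar, most often glucose, from a UDP-sugar donor onto small molecules such as phenolics, flavonoids, terpenoids and hormones. The sugar makes the acceptor more soluble and often inactive, and many plant pigments, scents and defence compounds are stored in this form. Contigs assigned to this superfamily were taken from the transcriptome of Melianthus minor (also M. elongatus), a plant with black nectar whose pigment the submitters' title likens to iron-gall ink. Members were the contigs whose Arabidopsis description named the UDP-glycosyltransferase superfamily or a UDP-glucosyl transferase and that reached 10 or more in at least 2 of the 11 libraries. Contigs closest to the UGT84 phenolic acid glucosyltransferases and to UGT78D2 (7 loci) were left out. Of 68651 contigs listed, 205 had such a description, 193 of them outside the left-out loci, and 76 reached the level. The other 117 did not. The members were chosen on their level, so a contig high in 1 group could enter through that group alone. The main counts of calls over the members are given beside the share of all contigs tested. At the threshold, the second-highest library value was 10.3 for the lowest member, Mm33953, and 9.94 for the highest contig left out, Mm13440.

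RNA came from leaves and nectaries, the glands that secrete nectar, and the labels name no treatment, genotype or growth condition. The 11 libraries were grouped by the first part of their code: code 0 (0-A, 0-B), code 1 (1-A, 1-B, 1-C), code 2 (2-A, 2-B, 2-C) and code L (L-A, L-B, L-C). The sources used here do not give the age or number of the plants. Labels and codes cross. Mature leaf is the label of both code 0 libraries and also of 1-A. Presecretory nectary is that of the other code 1 libraries, and code L is filed as postsecretory. Code 2 is filed as secretory by stage, although 2-A carries presecretory in its title. Library 1-A correlated with 1-B and 1-C at a Pearson's r of 0.930 or more across the 26053 contigs kept, and libraries of code 0 with those of code 1 at 0.551 or less. The 61 photosynthesis marker contigs (such as Rubisco and light-harvesting proteins) summed to 27162 to 47090 in code L and to 1695 to 2760 in the other libraries. The 25 nectary marker contigs (such as those near CRC and SWEET9) summed to 40.8 to 122 in code L and to 1526 to 9825 elsewhere. Single markers differed within these sums. In code 0 the CRC-like Mm734 was at 932 and 1215 and the SWEET9-like Mm6 at 0.84 and 2.86. In codes 1 and 2 Mm734 was at 58.4 to 438 and Mm6 at 1969 to 5216. The CWINV4-like Mm253088 was at 15.3 to 23.5 in code L and at 1.27 or less elsewhere. Another CWINV4-like contig, Mm213688, went the other way, at 58.2 and 38.3 in code 0 and at 0.174 or less in code L. It was at 0 to 14.2 in codes 1 and 2. In the fit described below, 22 of the 25 nectary marker contigs were called higher outside code L and 1 lower. The groups are therefore named by code alone.

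The values are the authors' normalised read signal. The sources used here do not say whether they are scaled by contig length, so levels are compared between libraries and not between contigs. Contigs keep their Mm numbers and are called like the Arabidopsis locus that the table lists as closest. The 76 members lay closest to 33 loci. The table's descriptions name the enzyme for 10 loci, and the other 23 are described only as superfamily proteins. For 14 of those the standard Arabidopsis UGT name is used, and 9 (14 contigs) lie outside the UGT families listed for this work. Contigs of 1 locus can share reads, so the split of signal between them is uncertain. In a bulk library, fewer cells of a type and less RNA per cell cannot be told apart. Whether the libraries of a code stem from different plants is not stated, and the p-values cover the spread among these libraries only.

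**Figure D1:**
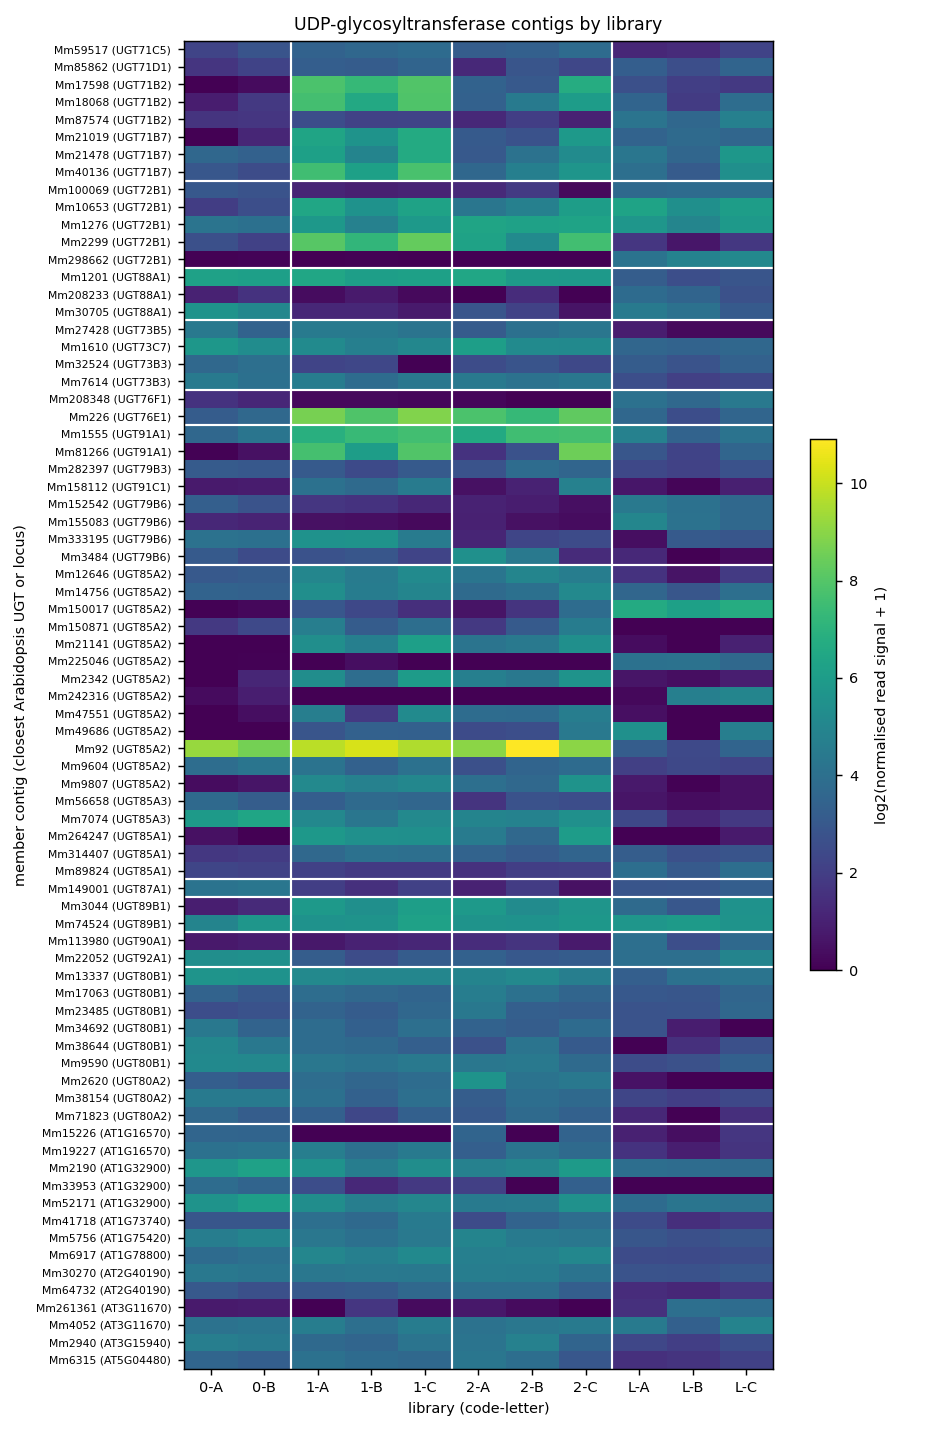
Signal of the 76 member contigs (rows, grouped by the family of the closest Arabidopsis locus) in the 11 libraries (columns), as log2(normalised read signal + 1). Rows such as Mm17598 and Mm18068 (UGT71-like) and Mm21141 (UGT85-like) are brighter in codes 1 and 2 than in code 0, and Mm92 is bright in all 8 libraries outside code L.

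Levels were compared between codes with limma on log2(value + 1), fitted on all 26053 contigs that pass the same level threshold, and a member was called at an adjusted p under 0.05 with a log2 difference of at least 1 in either direction. Between codes 1 and 0, 33 of the 76 members were called, 24 higher in code 1 and 9 lower. That is 43.4% of the members against 25.8% of all contigs tested, with 31.6% against 13.6% for higher and 11.8% against 12.2% for lower calls. The median log2 difference was 0.33 over the members and 0.10 over all contigs. Of the 24 that rose, 7 were UGT71-like, 8 UGT85-like, 3 UGT72-like and 3 UGT91-like. The 9 that fell came from 9 different families or groups. Leaving out a library lowered the calls over the whole table too. Without 0-A 16 of 72 members tested were called (22.2%, against 11% of all contigs), without 0-B 21 of 73 (28.8% against 11.7%) and without 1-A 26 of 76 (34.2% against 20.8%). A fit on the filed labels gave 0 calls by limma among the members (19 at an unadjusted p under 0.05) and 0 over all contigs (3557 at an unadjusted p under 0.05).

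**Figure D2:**
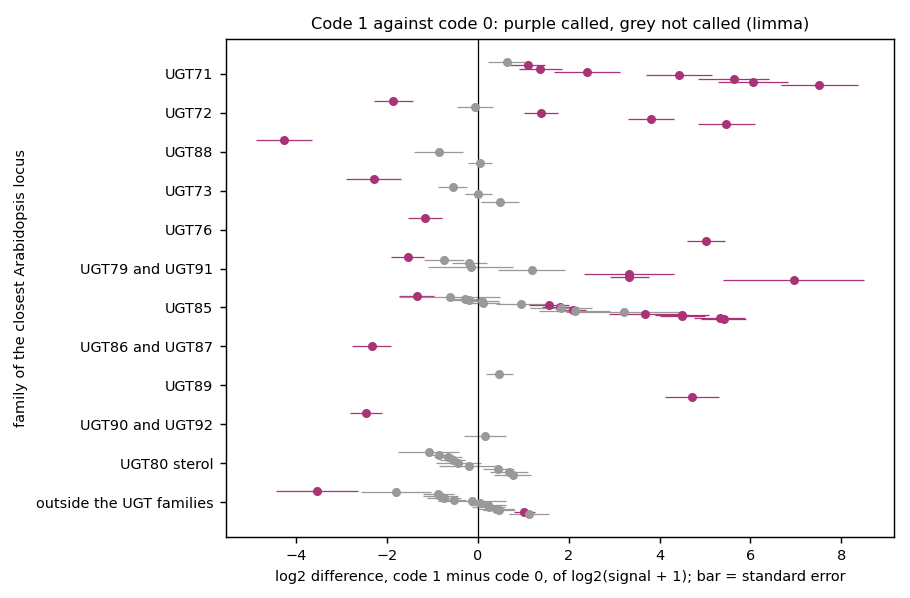
Log2 difference between code 1 and code 0 for each of the 76 members (points, 1 per contig, with the standard error from limma), by family of the closest locus. Purple points were called and grey points were not. The called UGT71-like points all lie right of 0, and the called UGT88-, UGT87- and UGT92-like points lie left of it.

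The UGT71 family includes Arabidopsis enzymes that glucosylate abscisic acid, among them UGT71C5. All 8 UGT71-like contigs but Mm87574 rose from code 0 to code 1. The contig Mm17598, like UGT71B2 (AT3G21760), was listed at 0 in 0-A and at 0.254 in 0-B, and stood at 224, 157 and 243 in 1-A, 1-B and 1-C. In code 2 it was at 9.83, 7.22 and 106, and in code L at 5.34, 3.05 and 2.49. Every code 1 library lay above every other library, and 2-C was the nearest to them. The log2 difference between codes 1 and 0 was 7.52 (SE 0.85; limma, adjusted p = 1.15e-04). The second UGT71B2-like contig, Mm18068, was at 0.835 and 2.50 in code 0 and at 201, 96.0 and 238 in code 1, a rise of 6.05 (SE 0.77; limma, adjusted p = 2.37e-04). The remaining one, Mm87574, was highest in code L, at 18.2 ± 7.24 (SD, n = 3) in code L and 1.86 to 4.00 on average elsewhere. It reached 10 in code L alone and entered the members through that code.

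Contigs like UGT71B7 (AT3G21790), a close relative of the abscisic acid glucosyltransferase UGT71B6, all rose as well. Mm40136 was at 6.75 and 4.75 in code 0 and at 185, 71.5 and 216 in code 1, a rise of 4.42 (SE 0.72; limma, adjusted p = 0.00116). Mm21019 was listed at 0 in 0-A and at 1.24 in 0-B and reached 80.7, 47.3 and 102 in code 1, a rise of 5.63 (SE 0.78; limma, adjusted p = 4.08e-04). In neither contig did the libraries of the codes overlap. Mm21478 rose by 2.41. The call was lost when 0-A, 0-B, 1-A or 1-C was removed, and the difference stayed between 1.38 and 2.91 under every alternative run. The contigs like UGT71C5 (Mm59517) and UGT71D1 (Mm85862) rose by 1.1 and 1.38 with adjusted p-values of 0.0499 and 0.0488 (limma), next to the threshold.

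UGT72B1 of Arabidopsis (AT4G01070) glucosylates monolignols, the building blocks of lignin, and chlorinated phenols taken up from outside. Its 5 contigs split by code. Mm2299 was at 5.40 and 3.27 in code 0, at 267, 145 and 319 in code 1, at 77.6, 35.8 and 193 in code 2, and at 2.35, 0.599 and 2.43 in code L. Every library of codes 1 and 2 exceeded every library of codes 0 and L, with a log2 difference of 5.47 (SE 0.62) between codes 1 and 0 (limma, adjusted p = 1.13e-04). Mm10653 also rose in code 1, by 3.81, from 4.03 ± 1.50 (SD, n = 2) to 70.3 ± 21.2 (SD, n = 3), and its code L libraries, at 63.2 ± 19.1 (SD, n = 3), overlapped those of code 1. Mm1276 rose by 1.39, and was not called once 0-A, 0-B, 1-A or 1-C was removed. In contrast Mm100069 fell by 1.86 from 6.50 ± 0.740 (SD, n = 2) to 1.07 ± 0.138 (SD, n = 3), a call lost without 0-A or 0-B, and Mm298662 was at 0.0760 or less in all 8 libraries of codes 0, 1 and 2 and at 16.6, 27.6 and 32.9 in code L.

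UGT85 enzymes act on cytokinins in Arabidopsis (UGT85A1 glucosylates trans-zeatin) and on cyanohydrins in sorghum. It was the largest family here, with 18 contigs, 13 of them closest to UGT85A2 (AT1G22360). Between codes 0 and 1, 8 rose, 1 fell and 9 were not called. Mm264247, like UGT85A1 (AT1G22400), was at 0.413 and 0 in code 0 and at 55.6, 42.9 and 42.3 in code 1, a rise of 5.32 (SE 0.57; limma, adjusted p = 8.25e-05). The UGT85A2-like Mm21141 was listed at 0 in both code 0 libraries and at 41.3, 24.9 and 69.4 in code 1, a rise of 5.41 (SE 0.50; limma, adjusted p = 3.77e-05). Neither exceeded 1.03 in code L.

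The UGT85A2-like Mm92 had the highest signal of any member in a library. It was at 601 and 389 in code 0, at 867, 1227 and 787 in code 1, at 516, 1916 and 517 in code 2, and at 8.32, 4.35 and 10.4 in code L. Codes 0, 1 and 2 were not called different from each other, and 2-B stood above the other code 2 libraries. This 1 contig made up 16.4% to 57.3% of the members' summed signal outside code L and 1.02% or less within it. Since scaling by contig length is not stated, its rank and share among the members may partly reflect its length. The UGT85A3-like Mm7074 (AT1G22380) was the family's only fall from code 0 to code 1, from 72.4 ± 16 (SD, n = 2) to 28.5 ± 8.61 (SD, n = 3), by 1.34 (limma, adjusted p = 0.0250). That call was lost without 0-A (-1.57), without 0-B (-1.12) and without 1-B (-1.07).

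**Figure D3:**
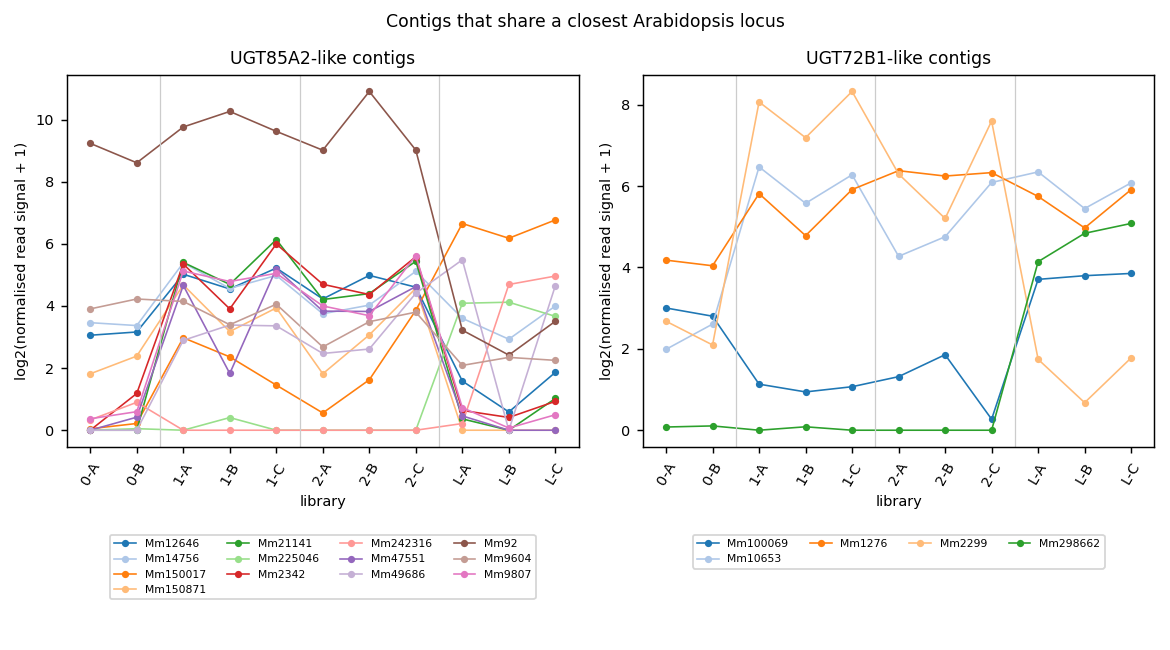
Signal of the 13 UGT85A2-like contigs (left) and the 5 UGT72B1-like contigs (right) in each library, as log2(normalised read signal + 1). Lines only join the points of a contig, since libraries have no order. Contigs of 1 locus differ in where they are high: Mm21141 and Mm2299 in codes 1 and 2, Mm150017 and Mm298662 in code L, Mm10653 in codes 1 and L, and Mm92 in codes 0, 1 and 2.

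Sugar-to-sugar transferases of the UGT79 and UGT91 families extend flavonoid glycosides, as Arabidopsis UGT79B6 does for flavonols of pollen. The UGT91A1-like Mm1555 (AT2G22590) was at 11.7 and 18.0 in code 0, at 118, 163 and 195 in code 1 and at 96.8, 190 and 197 in code 2. All code 1 and code 2 libraries lay above all others, and the rise from code 0 to code 1 was 3.33 (SE 0.43; limma, adjusted p = 2.54e-04). The second UGT91A1-like contig, Mm81266, rose by 6.95 (SE 1.55; limma, adjusted p = 0.00673), from 0.0450 and 0.405 to 207, 65.5 and 243, but without 0-A it was not called (6.74). The UGT91C1-like Mm158112 (AT5G49690) rose by 3.32, a call lost without any 1 library of codes 0 or 1. Of the 4 UGT79B6-like contigs (AT5G54010), Mm152542 fell by 1.54 (not called without 0-A, at -1.28) and the others were not called between these codes.

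Other families had few contigs. The UGT76E1-like Mm226 (AT5G59580), whose Arabidopsis relative glucosylates a hydroxylated jasmonate, was at 8.12 and 12 in code 0, at 406, 238 and 451 in code 1, and at 224, 157 and 305 in code 2. Code L, at 11.3, 4.89 and 10.9, overlapped code 0 and no other code. The rise from code 0 to code 1 was 5.02 (SE 0.41; limma, adjusted p = 2.04e-05), the lowest adjusted p of the members in this comparison. The UGT89B1-like Mm3044 (AT1G73880), near an Arabidopsis enzyme that glucosylates flavonols and benzoates in vitro, was at 0.903 and 1.43 in code 0 and at 59.1, 42.0 and 68.0 in code 1, a rise of 4.71 (SE 0.59; limma, adjusted p = 2.25e-04). The other UGT89B1-like contig, Mm74524, stood between 29.0 and 73.7 in all 11 libraries and was not called in any of the 4 comparisons.

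Code 0 carried a smaller set. The UGT88A1-like Mm30705 (AT3G16520) was at 48.0 and 32.3 in code 0, at 1.29, 1.35 and 0.746 in code 1, at 6.38, 3.47 and 0.496 in code 2, and at 21.0, 15.8 and 7.56 in code L. Both code 0 libraries exceeded all others, and the fall from code 0 to code 1 was by 4.26 on the log2 scale (SE 0.61; limma, adjusted p = 5.01e-04). The UGT92A1-like Mm22052 (AT5G12890), at 40.8 and 43.6 in code 0 and 8.35, 4.78 and 7.99 in code 1, fell by 2.46 (SE 0.34; limma, adjusted p = 4.39e-04). The UGT87A1-like Mm149001 (AT2G30150) was at 16.7 and 18.2 in code 0 and at 3.05, 1.81 and 3.29 in code 1, and fell by 2.33 (SE 0.42; limma, adjusted p = 0.00210). Code L lay between code 0 and code 1 for both. Mm149001 reached 10 in code 0 alone and entered the members through that code, so its excess there is partly set by the level threshold. Mm15226, closest to AT1G16570, was listed at 0 in all code 1 libraries and in 2-B and at 10.8 and 10.3 in code 0. Libraries 2-A and 2-C, at 10.4 and 10.05, stood level with code 0, and codes 2 and 0 were not called different. Its call between codes 1 and 0 was lost without 0-A (-3.50) or 0-B (-3.56).

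**Figure D4:**
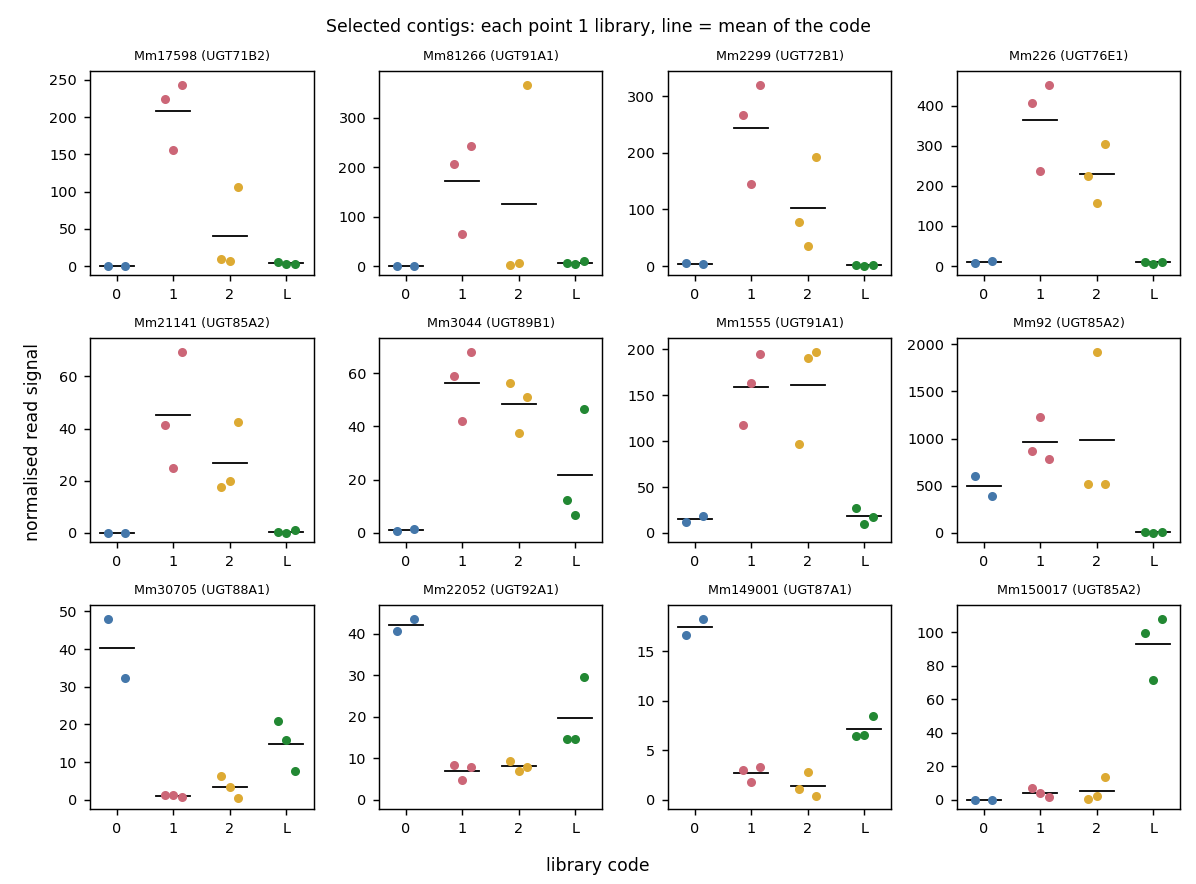
Normalised read signal of 12 contigs, 1 panel each with its own linear axis. Each point is a library, coloured by code, and the line is the mean of the code. The top row shows contigs high in code 1 (Mm17598, at 157 to 243), and the bottom row contigs high in code 0 (Mm30705, at 32.3 and 48.0) or in code L (Mm150017, at 71.5 to 108).

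Code 2 was set against code 0 in the same fit, and the comparison shares the code 0 libraries with the one above. Of the members 17 were higher in code 2 and 7 lower, 31.6% in all against 24.0% of the contigs tested (11.5% higher, 12.5% lower). Without 0-A 15 of 72 members tested were called (20.8%, against 9.86% of all contigs). The rises included Mm21141 by 4.68 (SE 0.50; limma, adjusted p = 9.88e-05), Mm264247 by 4.5 (SE 0.57; limma, adjusted p = 2.45e-04), Mm3044 by 4.5 (SE 0.59; limma, adjusted p = 3.32e-04) and Mm226 by 4.35 (SE 0.41; limma, adjusted p = 5.03e-05). For Mm21141 the code 2 libraries were at 17.5, 20.1 and 42.4, for Mm264247 at 22.4, 11.9 and 63.9, and for Mm3044 at 56.2, 37.5 and 51.2. The falls included Mm30705 by 3.46, Mm149001 by 3.06, Mm22052 by 2.26 and the UGT79B6-like Mm152542 by 2.25, whose libraries did not overlap between the codes. The sterol glucosyltransferase contig Mm2620, like UGT80A2, rose by 1.61. Its call was lost, with a difference in the same direction, without 0-A (1.76) or 0-B (1.46), with a pseudocount of 0.1 (1.72), in a fit of these codes alone (1.61) and without both 1-A and 2-A (1.17), the last chosen after seeing the data.

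Between codes 2 and 1, 1 of the 76 members was called, 1.32% against 1.17% of the contigs tested (0.184% higher, 0.983% lower), and it was lower. By limma 0 were higher (3 at an unadjusted p under 0.05, against 13 lower). The called contig was Mm333195, like the pollen flavonol enzyme UGT79B6. It was at 45.9, 48.3 and 22.4 in code 1 and at 1.19, 3.83 and 4.70 in code 2, with no overlap, and fell by 3.27 (SE 0.66; limma, adjusted p = 0.0415). The call was lost without any 1 library of codes 0 or 1 (-3.62 to -3.08), without 2-A (-2.85), and without L-B or L-C (-3.27), which serve only to estimate the spread. Pollen and tapetum markers, of which 3 contigs of 1 locus (AGP6) were kept out of 7 loci listed, summed to 214, 196 and 77.5 in 1-A, 1-B and 1-C and to 37.9 to 66.6 in code 2. In code 0 these markers summed to 74.3 and 51.6, near code 2, while Mm333195 was at 16.1 and 15.2, above code 2. The other pollen and tapetum loci had no kept contig. The part of pollen and tapetum in this result was not tested.

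The 3 libraries of code 2 differed among themselves. The median SD of log2 signal within code 2 was 0.58 over the members and 0.42 over all contigs kept, against 0.34 and 0.26 in code 1. In 9 of the 76 members (11.8%) library 2-C was at 10 or more and at least 3-fold above both 2-A and 2-B, as it was in 3.09% of all contigs kept. The same rule picked 0 members for 2-A and 1 (1.32%) for 2-B, against 0.898% and 1.18% of all contigs kept. This rule was chosen after the values were seen. Of the contigs picked for 2-C, Mm9807, Mm150871, Mm49686 and Mm150017 are all UGT85A2-like, and Mm17598 and Mm18068 both UGT71B2-like. Contigs of 1 locus can share reads. Mm81266 was the most divided, at 366 in 2-C against 2.03 and 5.67 in 2-A and 2-B. Mm21019 was at 7.53, 5.79 and 59.4, and the UGT91C1-like Mm158112 at 0.401, 1.05 and 26.3. Without 2-C the comparison of codes 2 and 1 called 10 of 75 members tested (13.3%), 9 lower and 1 higher in code 2, and 5.68% of all contigs. Without 1-A limma called 0 members (10 at an unadjusted p under 0.05) and 0 of all contigs (2071 at an unadjusted p under 0.05).

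**Figure D5:**
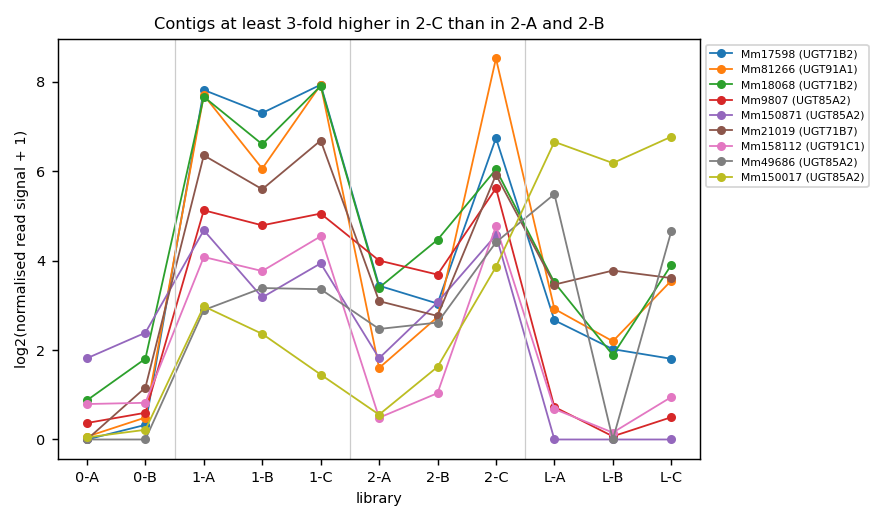
Signal of the 9 contigs at least 3-fold higher in library 2-C than in 2-A and 2-B, as log2(normalised read signal + 1), with lines only joining the points of a contig. In Mm81266 library 2-C (366) lies above the code 1 libraries (65.5 to 243), while 2-A and 2-B (2.03 and 5.67) lie near code L.

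The mean of codes 0, 1 and 2 was last set against code L. Of the members 42 were higher outside code L and 15 lower, 75% in all against 69.4% of the contigs tested (55.5% higher and 13.8% lower). This comparison depended on scaling. The median log2 difference of all contigs kept was 1.2 as deposited, 0.66 with equal library totals and 0.10 after median of ratios scaling. With the last, 23 members were higher and 21 lower, 44 of 71 tested (62%, against 48.7% of all contigs). The column totals were 631454 to 916467 in code L and 942092 or more elsewhere. The largest difference was that of Mm92, at 6.43 (SE 0.41; limma, adjusted p = 5.12e-07). The UGT72B1-like Mm2299 was higher outside code L by 4.14 and the UGT80A2-like Mm2620 by 3.69, its highest code L library being at 0.46. Both and Mm92 were called under all 3 scalings. The UGT88A1-like Mm1201, at 57.8 to 86.7 in all 8 libraries of codes 0, 1 and 2 and at 8.21, 5.09 and 6.44 in code L, was also higher, by 3.28.

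In 10 of the 15 contigs that were higher in code L no difference was called among codes 0, 1 and 2. The same count was not made over all contigs, most of which were also not called between these codes. Of all contigs tested 25.8% were called between codes 1 and 0, 24.0% between codes 2 and 0 and 1.17% between codes 2 and 1. The UGT85A2-like Mm150017 was at 99.7, 71.5 and 108 in code L and at 13.5 or less in every other library, a difference of -5.07 (SE 0.58; limma, adjusted p = 1.91e-05). Mm225046, also like UGT85A2, was at 16, 16.4 and 11.7 in code L and listed at 0 in 6 of the 8 others, where it was at most 0.326. The UGT79B6-like Mm155083 was at 31.1, 16.3 and 11.7 in code L and at 1.31 or less elsewhere, a difference of -3.54 (SE 0.33; limma, adjusted p = 4.89e-06). The UGT76F1-like Mm208348, whose Arabidopsis relative glucosylates an auxin precursor, was at 15.9, 12 and 20.6 in code L and at 2.00 or less elsewhere; unlike the 10, it also fell from code 0 to codes 1 and 2, calls that were lost without 0-A or 0-B, with a pseudocount of 10 and without both 1-A and 2-A; the call against code 1 was also lost without any 1 library of code 1 and with the replicate letter as a block. In these 4 contigs code L did not overlap the other libraries. Mm225046, Mm155083 and Mm208348 reached 10 in code L alone and entered the members through that code. Their lack of overlap is thus partly set by the level threshold. Photosynthesis markers were high in the same libraries, and their part in these differences was not tested.

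The 9 UGT80-like contigs, whose Arabidopsis relatives attach glucose to membrane sterols, had 0 calls by limma between codes 1 and 0, and 7 of them were higher outside code L. Of these, Mm13337, Mm38154 and Mm9590 were not called after median of ratios scaling, nor Mm13337 with equal totals. UGT80B1-like Mm13337 (AT1G43620) was at 49.4 and 45.5 in code 0, at 31.0 to 33.9 in code 1, at 24.0 to 33.6 in code 2 and at 8.87, 15.8 and 17.2 in code L. The 4 UGT73-like contigs, relatives of enzymes of defence and phenolic acid metabolism, included Mm1610, like UGT73C7 (AT3G53160), which acts on coumaric and ferulic acid in Arabidopsis. It was at 53.6 and 38.4 in code 0, at 25.2 to 36.0 in code 1, at 34.7 to 68.7 in code 2, which overlapped both, and at 11, 10.1 and 11.6 in code L. Of the 14 contigs outside the UGT families 1 rose and 1 fell between codes 0 and 1. They include 3 near AT1G32900, the granule-bound starch synthase of Arabidopsis. All 3 had their highest mean in code 0, and none was called between codes 1 and 0. Between codes 2 and 0 only Mm52171 was called, as lower in code 2, a call lost in 18 of 21 alternatives. Mm2190 was at 52.4 and 75.4 in code 0 and at 23.8 to 46.6 in code 1. It was at 26.6, 31.4 and 61.2 in code 2, which overlapped code 0, and at 14.4, 13.4 and 12.8 in code L. Its call against code L was lost after median of ratios scaling.

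By the code with the highest mean, 32 members peaked in code 1 (42.1%, against 25.9% of all contigs kept), 18 in code 0 (23.7% against 29.3%), 14 in code L (18.4% against 16.6%) and 12 in code 2 (15.8% against 28.2%). Code L was the lowest for 38 members (50.0% against 65.7%). A peak says nothing of the distance to the next code. Of the members 6 were not called in any comparison, namely Mm74524, Mm49686, Mm17063 and Mm23485 (both UGT80B1-like), Mm282397 (UGT79B3-like) and Mm4052 (near DGD1, a galactolipid synthase). This count was not made over all contigs tested, so it is not read as a trait of the members. Against code L alone 69.4% of all contigs and 75% of the members were called. The UGT84-like and UGT78D2-like contigs that the rule left out had 8 of 9 contigs closest to UGT84A1 or UGT84A2. In the UGT84A2-like Mm2212 code 0 (856 and 656) and 2-A (494) were high and 2-C (8.59) low, whereas in Mm81266 code 0 and 2-A were low and 2-C high. Some UGT contigs lacked the description the rule asked for. Among them Mm2634, like the salicylic acid glucosyltransferase UGT74F2 (AT2G43820), was at 2.81 and 4.70 in code 0 and at 264, 195 and 323 in code 1.

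Enzymes that make UDP-sugars supply the donors of these reactions. Of 28 such Arabidopsis loci, 17 had a kept contig, with 97 contigs. Between codes 1 and 0, 26 were higher and 14 lower (41.2% called, against 25.8% of all contigs tested). Mm2796, like the UDP-glucose dehydrogenase UGD3 (AT5G15490), was at 0.359 and 0.149 in code 0 and at 68.3, 34.2 and 66.9 in code 1, a rise of 5.46 (SE 0.37; limma, adjusted p = 9.89e-06). Mm48438, like the nucleotide-rhamnose synthase UER1 (AT1G63000), was at 40.0 and 37.8 in code 0 and at 11.7, 1.34 and 3.17 in code 1, and fell by 3, a call lost without 0-A (-2.96) or 0-B (-3.04). Between codes 2 and 0, 15 were higher and 14 lower (29.9% called, against 24.0%), among them Mm2796 by 4.98 and the UGD2-like Mm271808 by -1.98. Between codes 2 and 1 limma called 0 (13 at an unadjusted p under 0.05). Outside code L 80 were higher and 0 lower by limma, 82.5% called in all, against 69.4% (55.5% higher and 13.8% lower). The comparison with code L depended on scaling, and this count was not repeated under other scalings. Mm48438 and Mm271808 lost their call with equal totals and after median of ratios scaling, while Mm7, described next, kept it. The SUS4-like sucrose synthase Mm7 (AT3G43190), which makes UDP-glucose from sucrose, was at 252 to 413 in code 0, at 965 to 1996 in code 1, at 2011, 2586 and 1581 in code 2 and at 28.9, 13.5 and 18.0 in code L, a difference of 5.64 (SE 0.32; limma, adjusted p = 2.69e-07).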

How the data were processed

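RNA-seq of 11 libraries was analysed from 1 table of the series. The values are a normalised read signal per contig as deposited by the authors, who used kallisto 0.46.1 per the submitters' processing notes. They are not whole numbers and share no common step, so the depth in reads is unknown. The assembly, the scaling and the choice of Arabidopsis locus are not given in the sources used here. Values were taken as log2(value + 1), a scale that understates differences of low contigs. Of 68651 contigs, the 26053 that reached 10 in at least 2 libraries were fitted with limma 3.58.1 (R 4.3.3; 1 mean per code, variance trend), with Benjamini-Hochberg adjustment over all 26053. A call needed an adjusted p under 0.05 and a log2 difference of at least 1. The fit was tested on simulated data with changes placed only in contigs of higher mean signal. That test therefore does not cover contigs near 0. Tables and figures used Python 3.11.15, pandas 2.3.3 and matplotlib 3.10.9.

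Contigs were named in the text by rule: up to 4 called members per comparison and direction with the largest difference and no overlap of libraries, the 10 members with the highest value in a library, the highest of each family, the largest called differences of the UDP-sugar list, and members with 1 library over 5 times the others of its code and over 50. Other contigs named were chosen after their values were seen. The members and gene lists were chosen with earlier results of these data known. Alternatives changed the pseudocount, the filter, the scaling, the grouping, the libraries in the fit and the variance trend.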

Additional observations from a re-analysis of the deposited data

How the results depend on the processing

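Leaving out 1 library at a time gave 16 to 36 members called between codes 1 and 0 (33 with all), 0 to 10 between codes 2 and 1 (1 with all), 15 to 32 between codes 2 and 0 (24 with all) and 50 to 56 against code L (57 with all). All contigs called in the same fits ranged from 2696 to 7492, 0 to 1458, 2269 to 7163 and 16239 to 18195. Of the members' calls 16, 0, 15 and 44 were kept in every such fit. The filter on low values was applied anew in each, and 3, 0, 1 and 8 called members were not tested in at least 1 of them. A filter of 50 left 14, 0, 10 and 13 calls among 20 members tested (70%, 0%, 50% and 65%). Of all contigs tested under that filter 30.4%, 1.36%, 28.7% and 78.7% were called. Against code L the members' share was then below that of all contigs, unlike in the main fit. Grouping by filed tissue and stage gave 0 calls by limma in the first 3 comparisons (19, 2 and 17 at an unadjusted p under 0.05) and 52 against code L. The cause was not tested. Between codes 2 and 1 the count was 0 with a pseudocount of 0.1, equal totals, median of ratios, the compared codes only, and without both 1-A and 2-A (an alternative chosen after seeing the data), at 14, 13, 13, 12 and 6 members with an unadjusted p under 0.05, and 3 with a pseudocount of 10. Against code L a pseudocount of 10 gave 27. No result reversed.

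Replicate letters were checked for pairing: 15 same-letter pairs had correlations of deviations from -0.13 to 0.24, with 8 over 0.1, and 7 of 11 libraries correlated best with their own letter, a hint from the data and not the design. Not every pair was over 0.1 and no label states a pairing, so the letters were not treated as pairs. With the letter as a replicate block the counts were 29, 2, 26 and 57. Code 0 has 2 libraries, and unknown depth sets no limit on low values here.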
